A study of Mus musculus with 4 samples.

Results

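The genes described here are 42 genes of the hypoxia response and of glycolysis, compared between the mouse stromal lines OP9M2 and BFC012. They were chosen by name, though with earlier results of these data known. Each gene was taken from the probe sets that the annotation of the Affymetrix mouse array assigns to it alone. In this way 39 of the 42 genes were measured, by 88 of the 45037 probe sets tested, out of 18193 genes measured in all. The 39 genes were 20 of glycolysis (46 probe sets) and 19 others of the hypoxia response (42 probe sets). Gpi1 and Eno1 had no probe set naming them alone and the 3 probe sets of Bnip3l also named another gene, so these genes were not analysed here. Ero1l keeps the name given by the array annotation, and its current symbol is Ero1a.

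OP9M2 is a clonal line derived from OP9 stroma and labelled as mesenchymal stem cells, so it stands for a single clone. BFC012 is a fibroblast line from mouse fetal liver. Each line was measured on 2 arrays that the labels call biological replicates, without saying what was independent between them. Both had received 2000 rad and had been plated at 25000 cells/cm2 48 hours before harvest. The serum content of the medium was 20% for OP9M2 and 10% for BFC012, so that an effect of serum and one of the line cannot be told apart. No condition with altered oxygen was part of the comparison, which asked how a stroma that supports human blood progenitors differs from a stroma that does not.

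Cells short of oxygen respond largely through the hypoxia-inducible factors (HIF). In oxygen, the prolyl hydroxylases of the Egln family mark the alpha subunits of HIF and the Vhl protein directs them to degradation. When oxygen is low the alpha subunits persist, pair with a beta subunit (Arnt) and switch on genes for vessel growth, pH control, removal of mitochondria, collagen modification and glycolysis. Glycolysis splits glucose into pyruvate and lactate without oxygen, and blood stem cells of the marrow are known for a strong reliance on it. Because the HIF alpha subunits are regulated mainly as proteins, arrays measure their transcripts and not their activity.

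Values are log2 units read from the deposited intensities, and differences are OP9M2 minus BFC012. A fold is 2 raised to the size of the difference without its sign, the brighter line over the dimmer. A probe set was called with limma when its adjusted p over all probe sets was under 0.05 and it differed 2-fold or more (1 log2 unit). Each gene is represented by its brightest probe set, judged by the mean of all 4 arrays. The background level was 6.10 log2 units, the 95th percentile of 78 chemosensory receptor probe sets. Where neither array of a line exceeded it, the fold is given as at least the brighter mean over this level. The fetal liver arrays were closer to each other (r = 0.994 across probe sets) than the OP9M2 arrays (r = 0.980), and OP9M2 replicate 2 read 3.84 on the spiked poly-A controls against 7.64 on OP9M2 replicate 1 and 7.06 and 6.20 in BFC012. Of 17 measured mesenchymal and fibroblast markers 2 were called higher (Col1a2, S100a4) and 2 lower (Eng, Dcn), and Thy1 was below background on every array. Of 9 measured adipocyte markers 4 were called higher (Fabp4, Pparg, Plin4, Lpl). The mean of that list was 11.75 and 8.97 in OP9M2, with 9 and 7 genes above background, and 5.27 and 5.34 in BFC012, with 4 above background on each array. Adipoq, the hormone of mature fat cells, read 12.84 and 5.41 in OP9M2 and 3.99 and 3.39 in BFC012. Of 8 measured macrophage markers 3 were above background in a line (Cd14, Cd68 and Csf1r), Cd14 was called lower, and Ptprc, Itgam and Emr1 were below background on every array.

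By gene, 10 of the 39 measured members were called, 7 higher and 3 lower in OP9M2 (25.6%). Over all 18193 genes 5.91% were called, 2.36% higher and 3.56% lower. Over the 12021 genes above background in a line 8.67% were called, 3.45% higher and 5.22% lower. By probe set, 14 of 88 were called (11 higher and 3 lower), against 4.46% of all probe sets (1.8% higher and 2.66% lower). The median difference of the members was 0.039 log2 units and that of all genes 0.032, so the members were spread in both directions, between -4.25 and 5.08. In 31 of the 39 genes (79.5%) the arrays of the lines did not overlap, with OP9M2 above in 17 and below in 14, against 53.2% of all genes and 59.9% of those above background. All members but Slc16a3 were above background in a line. With either BFC012 array left out, so that the spread came from the OP9M2 pair alone, limma called 0 of 45037 probe sets. The smallest adjusted p was then 0.0826 without BFC012 replicate 1 and 0.0903 without BFC012 replicate 2, and 4568 and 4517 probe sets had an unadjusted p under 0.05. With an OP9M2 array left out, the spread came from the closer BFC012 pair alone, and 3210 probe sets were called without OP9M2 replicate 1 and 4437 without OP9M2 replicate 2, against 2008 with all arrays. A gene called in such a fit but not with all arrays is therefore given as a value and not as a change.

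**Figure D1:**
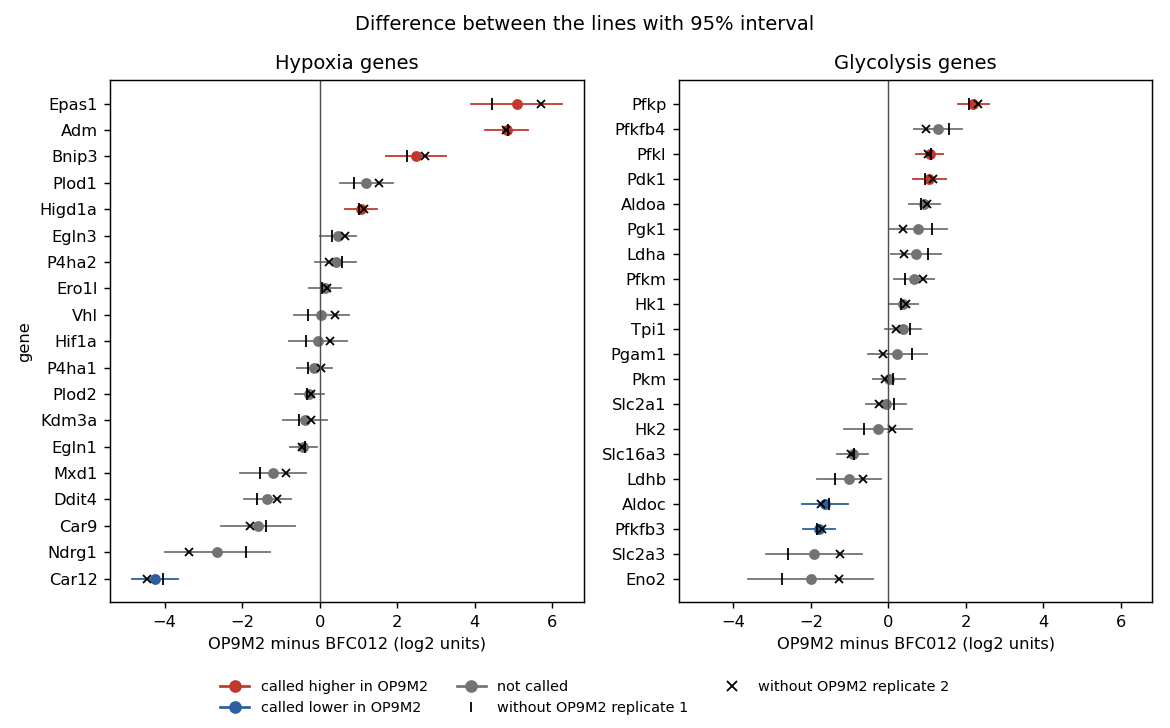
Difference OP9M2 minus BFC012 (horizontal axes, log2 units) for 19 hypoxia genes (left) and 20 glycolysis genes (right). Circles are the limma estimates from 4 arrays with their unadjusted 95% intervals (lines), red for genes called higher in OP9M2, blue for lower and grey for not called, and ticks and crosses are the values without OP9M2 replicate 1 and without OP9M2 replicate 2. The hypoxia genes run from Car12 at -4.25 to Epas1 at 5.08, and the glycolysis genes from Eno2 at -2.01 to Pfkp at 2.19.

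Among the 19 hypoxia genes outside glycolysis 26.3% were called, against 5.91% of all genes and 8.67% of those above background. In OP9M2 4 were called higher (Epas1, Adm, Bnip3, Higd1a), 1 was called lower (Car12) and 14 were not called. Of the 5 oxygen sensing genes among the 19, Epas1 was called. It encodes HIF-2alpha, the alpha subunit prominent in endothelium and fat. On its brighter probe set it read 12.62 and 11.35 log2 units on the OP9M2 arrays, against 6.93 and 6.87 on the BFC012 arrays. The lines did not overlap, and the difference was 5.08 ± 0.44 (SE), or 33.8-fold (limma adjusted p = 0.0106). The size rests on the array used, at 4.45 without OP9M2 replicate 1 and 5.71 without OP9M2 replicate 2, called higher in both cases. A second Epas1 probe set was dim, at 7.17 and 6.67 in OP9M2 against 6.01 and 5.86 in BFC012 (0.98, adjusted p = 0.0955, not called). The adipocyte markers differed between the lines, and between the OP9M2 arrays, in the same direction as Epas1 (list means as given above). Their part in this result was not tested, and more cells with the transcript and more transcript per cell cannot be told apart in these samples.

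Hif1a, which encodes the alpha subunit found in nearly all cells, did not differ beyond the spread of its arrays. It read 12.80 and 12.20 in OP9M2 against 12.33 and 12.76 in BFC012, so the lines overlapped. The difference was -0.05 ± 0.28, with an unadjusted 95% interval of -0.78 to 0.69 (limma adjusted p = 0.965). Its other 3 probe sets differed by 0.02 to 0.77 and were not called. Egln1, the main oxygen-sensing prolyl hydroxylase, read 10.05 and 10.12 in OP9M2 and 10.47 and 10.54 in BFC012. That gap of -0.42 ± 0.13 separated the lines but was under 2-fold and did not pass (adjusted p = 0.192). The other Egln1 probe set differed by -0.02. Egln3, a related hydroxylase that HIF itself induces, read 7.71 and 7.36 in OP9M2 and 7.02 and 7.09 in BFC012 (0.48 ± 0.17, adjusted p = 0.242). The other Egln3 probe set differed by 0.81 and was not called. Vhl read 9.50 and 8.81 in OP9M2 and 9.05 and 9.19 in BFC012 (0.04 ± 0.27, interval -0.67 to 0.75), and its lines overlapped.

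Of the 14 measured HIF target genes among these, Adm, Bnip3 and Higd1a were called higher and Car12 lower. The other 10 were not called, and the median difference was -0.21. The share called was 28.6%, against 5.91% of all genes and 8.67% of those above background. Adm encodes adrenomedullin, a secreted peptide that widens vessels. On its brighter probe set Adm read 10.91 and 10.96 in OP9M2, against 5.87 and 6.36 in BFC012, close to the background level. The difference was 4.82 ± 0.21, or 28.2-fold (limma adjusted p = 0.00209), and the arrays within each line lay far closer together than the lines. The second probe set read 10.18 and 10.41 in OP9M2 and 5.15 and 5.43 in BFC012, at least 18.4-fold higher in OP9M2 (adjusted p = 0.00157). Both Adm probe sets thus gave the same direction and nearly the same size.

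Bnip3 and Higd1a encode mitochondrial proteins. Bnip3, which marks mitochondria for removal by autophagy, was measured by a single probe set at 12.48 and 12.01 in OP9M2 and 9.46 and 10.07 in BFC012. Its difference was 2.48 ± 0.29, or 5.57-fold (limma adjusted p = 0.0224), without overlap. Higd1a, a small inner membrane protein tied to the respiratory chain, read 12.60 and 12.46 in OP9M2 and 11.56 and 11.36 in BFC012 on its brightest probe set. That difference was just past the fold required, at 1.07 ± 0.15 (2.1-fold, adjusted p = 0.0368), and at 1.00 (just under the fold required) it was not called without OP9M2 replicate 1. Of its other probe sets, that at 1.60 was called higher and that at 1.38 was not.

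Car12 encodes a carbonic anhydrase at the cell surface that helps to control pH outside the cell. On its brightest probe set it was at background in OP9M2, at 5.23 and 5.66, against 9.52 and 9.87 in BFC012. Car12 was at least 12.1-fold lower in OP9M2, with a measured difference of -4.25 ± 0.22 (limma adjusted p = 0.00331). The other 2 Car12 probe sets were below or near background in both lines and differed by 0.00 and -0.84. The related anhydrase Car9, a common marker of hypoxic tissue, was also below background on both OP9M2 arrays (5.51 and 5.90) and read 6.84 and 7.75 in BFC012, but did not pass (-1.59 ± 0.36, adjusted p = 0.101).

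HIF is known to bind a short core sequence, and the promoters of 3 genes that differed widely are printed to show where it stands. The windows are from RefSeq on mouse build GRCm38.p6, run 5′ to 3′ on the strand of the gene and cover 250 bases before and 50 bases after an annotated start. Capitals mark the HIF core ACGTG or GCGTG on either strand, and the palindrome CACGTG, which other factors also bind, counts on both strands. Epas1 has no window in the table used. Adm (chr7:110627407-110627706, plus strand) holds 2 cores, Bnip3 (chr7:138909457-138909756, minus strand) holds 5 including 1 CACGTG, and Car12 (chr9:66713436-66713735, plus strand) holds 0.
Adm: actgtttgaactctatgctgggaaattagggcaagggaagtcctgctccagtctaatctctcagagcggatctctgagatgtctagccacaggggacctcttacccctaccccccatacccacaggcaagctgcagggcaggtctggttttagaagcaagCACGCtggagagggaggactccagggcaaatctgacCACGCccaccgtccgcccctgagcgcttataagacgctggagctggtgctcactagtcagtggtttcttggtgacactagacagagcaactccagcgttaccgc
Bnip3: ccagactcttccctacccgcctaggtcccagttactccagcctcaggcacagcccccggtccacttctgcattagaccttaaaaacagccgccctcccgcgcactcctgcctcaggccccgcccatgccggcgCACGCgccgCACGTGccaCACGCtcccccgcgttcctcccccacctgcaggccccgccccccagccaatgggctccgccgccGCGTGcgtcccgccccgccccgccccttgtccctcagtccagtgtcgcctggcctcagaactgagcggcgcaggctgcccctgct
Car12: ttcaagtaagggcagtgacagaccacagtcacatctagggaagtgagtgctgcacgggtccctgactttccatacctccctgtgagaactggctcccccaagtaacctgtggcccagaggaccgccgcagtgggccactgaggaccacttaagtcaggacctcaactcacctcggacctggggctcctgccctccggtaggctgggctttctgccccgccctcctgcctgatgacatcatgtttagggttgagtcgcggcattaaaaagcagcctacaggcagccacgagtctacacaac
Counted from the start, the 2 cores of Adm lie at -90 and -54 and those of Bnip3 between -117 and -35. A match is a description of letters and not a bound site, and a window without one says nothing about HIF elsewhere at that gene.

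Such a core is common. It stands in 43.8% of all 32851 promoter windows and in 61.2% of the 12396 windows of genes above background in a line. Of the 52 windows of the genes described here, 40 (76.9%) hold it. Windows rich in CG dinucleotides have more chances to hold it, and the median number of CG dinucleotides was 22 in these windows, 20 in those of genes above background and 7 in all. The core was present in 6 of 7 windows of genes called higher in OP9M2, in 4 of 5 windows of genes called lower and in 27 of 36 windows of genes not called. The remaining 4 windows belong to Gpi1 and Eno1. Some genes have several windows. Counted by gene, 32 of 37 members with a window held a core (86.5%), against 67.2% of genes above background and 46.7% of all. These were 6 of 6 genes called higher, 2 of 3 called lower and 23 of 26 not called, the rest being unmeasured genes.

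**Figure D2:**
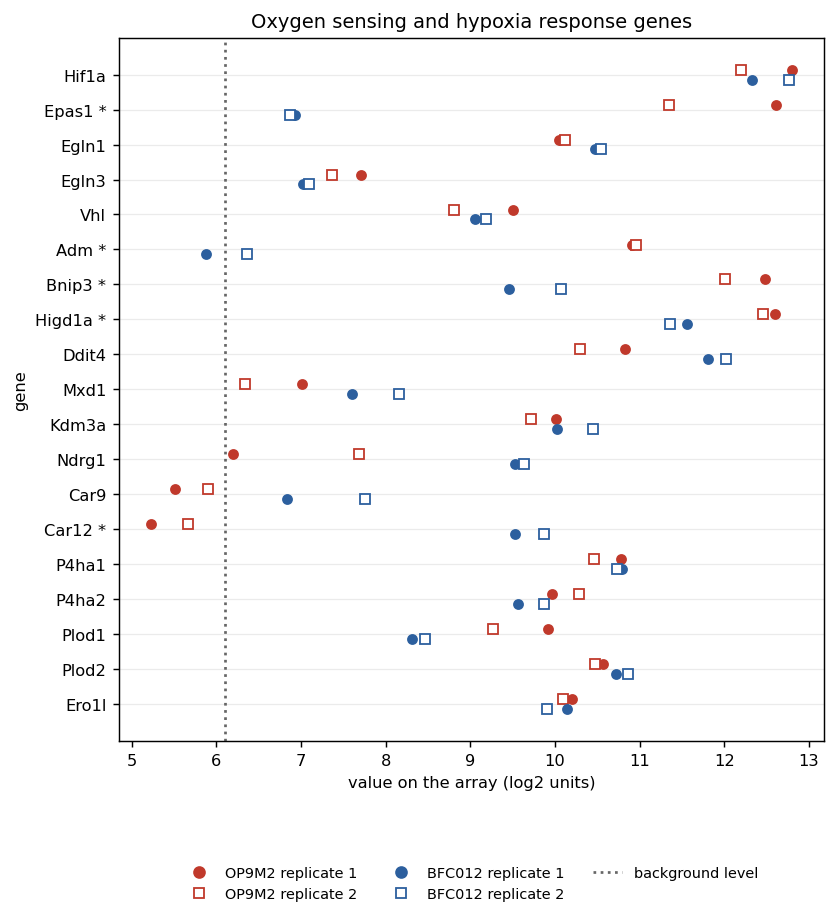
Array values (horizontal axis, log2 units) for the 19 measured oxygen sensing and hypoxia response genes (vertical axis). OP9M2 is drawn in red and BFC012 in blue, with circles for replicate 1 and squares for replicate 2. A dotted line marks background and asterisks the 5 called genes. Epas1 and Adm lie far to the right in OP9M2, Car12 and Ndrg1 far to the right in BFC012, and the symbols of Hif1a are mixed.

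Among the hypoxia genes that were not called, some had wide gaps between the lines and are described because of them, a choice made after their values were seen. Ndrg1, a cytoplasmic protein induced by stress and differentiation, read 6.20 and 7.68 in OP9M2 against 9.52 and 9.64 in BFC012. Its difference of -2.64 ± 0.51 (6.23-fold) did not pass (limma adjusted p = 0.0735), and the OP9M2 arrays were 1.49 log2 units apart. All 5 of its probe sets were negative, between -2.96 and -0.63. With the BFC012 pair, 0.11 apart, as the only measure of spread it was called lower without OP9M2 replicate 1 (-1.90, adjusted p = 0.00856) and without OP9M2 replicate 2 (-3.38, adjusted p = 0.00187), while without either BFC012 array its adjusted p was 0.456 and 0.476. Ddit4, an inhibitor of the mTOR growth pathway, read 10.82 and 10.30 in OP9M2 against 11.81 and 12.01 in BFC012 (-1.35 ± 0.23, adjusted p = 0.0530). It too was called lower in these single-array fits, at -1.62 without OP9M2 replicate 1 and -1.09 without OP9M2 replicate 2, and its adjusted p without either BFC012 array was 0.362 and 0.425. With all arrays Ddit4 was called lower in some alternative fits. These left out dim probe sets, used an intensity trend in eBayes or took the mean of the probe sets of each gene. Mxd1, a repressor that competes with Myc for its partner, had a difference of -1.20 ± 0.32 (adjusted p = 0.14). The 3 Mxd1 probe sets lay between -1.20 and 0.06. The histone demethylase Kdm3a differed by -0.38 ± 0.22.

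None of the genes for the enzymes that modify collagen or fold secreted proteins was called. Plod1, a lysyl hydroxylase of collagen, read 9.91 and 9.27 in OP9M2 and 8.31 and 8.47 in BFC012. The lines did not overlap on this brighter probe set, but the difference of 1.20 ± 0.26 did not pass (limma adjusted p = 0.0907). The difference was 1.52 without OP9M2 replicate 2 and 0.88 without OP9M2 replicate 1. Plod1 was also measured by another probe set above background, which differed by 0.07. Its relative Plod2 differed by -0.27 ± 0.14. The collagen prolyl hydroxylases P4ha1 and P4ha2 differed by -0.14 ± 0.17 and 0.41 ± 0.20, and Ero1l, an oxidase that forms disulfide bonds in the endoplasmic reticulum, by 0.13 ± 0.15.

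In glycolysis 5 of the 20 measured genes were called (25.0%), against 5.91% of all genes and 8.67% of those above background. Pfkl, Pfkp and Pdk1 were called higher in OP9M2 and Pfkfb3 and Aldoc lower, and 15 were not called. The 14 enzymes of the pathway had a median difference of 0.38, and 10 of them (71.4%) were above 0. Over all genes the median was 0.03 and 54.7% were above 0. The 6 transporters and regulators had a median of -0.49. Both list medians kept their sign without either OP9M2 array. They were 0.50 and 0.29 for the enzymes and -0.37 and -0.60 for the transporters and regulators. No test was made of either list.

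At the step that commits glucose to glycolysis, 2 of 3 genes were called higher. Over all genes 2.36% were called higher, and 3.45% of those above background. It is run by phosphofructokinase, whose subunits Pfkl, Pfkm and Pfkp are named for liver, muscle and platelet. Pfkp read 9.67 and 9.44 in OP9M2 and 7.40 and 7.33 in BFC012, a difference of 2.19 ± 0.15 or 4.57-fold (limma adjusted p = 0.00603). Pfkl read 10.28 and 10.37 in OP9M2 and 9.24 and 9.27 in BFC012, with 1.07 ± 0.13 or 2.09-fold (adjusted p = 0.0260). In both genes the gap within a line was far smaller than that between the lines, but the Pfkl call was lost with an intensity trend in eBayes (adjusted p = 0.0541) and with the mean of its probe sets (0.76, under the fold required). Pfkm, at 0.66 ± 0.20, was also higher on both OP9M2 arrays than on both BFC012 arrays but did not pass (adjusted p = 0.174). The other Pfkl probe sets differed by 0.86 and 0.35, and the other 2 Pfkp probe sets were dim and differed by 0.68 and 0.26, none of them called.

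Phosphofructokinase is activated by a bisphosphate of fructose, and of Pfkfb3 and Pfkfb4, which encode enzymes that set its level, Pfkfb3 was called. Pfkfb3, the form most tied to fast glycolysis, read 6.32 and 6.20 in OP9M2, near background, and 7.92 and 8.16 in BFC012. It was called lower, at -1.78 ± 0.16 or 3.44-fold (limma adjusted p = 0.0106), and a second probe set below background on all arrays differed by 0.17. With the mean of its probe sets (-0.81) it was not called. Pfkfb4 read 8.75 and 9.34 in OP9M2 and 7.79 and 7.75 in BFC012 (1.27 ± 0.23, adjusted p = 0.0644). It was not called with all arrays, and was called higher without OP9M2 replicate 1 (1.57).

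The window of Pfkp (chr13:6648722-6649021, minus strand), the glycolysis gene with the largest called difference, holds 4 of the HIF cores described above. Those of Pgk1 (chrX:106186850-106187149, plus strand) and Ldha (chr7:46845554-46845853, plus strand) are shown beside it as textbook HIF targets. They hold 2 and 7 cores, and 2 CACGTG palindromes lie in this Ldha window. It is the more upstream of 2 Ldha windows, and the other (chr7:46846832-46847131, plus strand) holds 2 cores and 0 CACGTG.
Pfkp: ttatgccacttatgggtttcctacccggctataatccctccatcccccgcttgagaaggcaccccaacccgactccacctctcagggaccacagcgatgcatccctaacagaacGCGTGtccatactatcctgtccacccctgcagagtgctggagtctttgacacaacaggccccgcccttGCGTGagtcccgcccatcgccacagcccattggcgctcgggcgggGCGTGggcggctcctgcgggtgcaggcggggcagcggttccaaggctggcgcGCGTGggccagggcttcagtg
Pgk1: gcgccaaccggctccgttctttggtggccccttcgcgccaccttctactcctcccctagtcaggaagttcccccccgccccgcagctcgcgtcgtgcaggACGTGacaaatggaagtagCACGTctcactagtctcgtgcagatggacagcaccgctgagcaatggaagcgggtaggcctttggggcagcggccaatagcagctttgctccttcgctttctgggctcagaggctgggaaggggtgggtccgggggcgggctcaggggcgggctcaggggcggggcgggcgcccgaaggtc
Ldha: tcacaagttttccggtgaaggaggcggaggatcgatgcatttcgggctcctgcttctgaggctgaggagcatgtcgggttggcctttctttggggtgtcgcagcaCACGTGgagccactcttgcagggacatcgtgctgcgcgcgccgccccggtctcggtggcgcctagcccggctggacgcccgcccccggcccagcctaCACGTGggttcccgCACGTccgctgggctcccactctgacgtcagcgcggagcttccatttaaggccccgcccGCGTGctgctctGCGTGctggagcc
The cores of Pgk1 lie at -150 to -131 from the start and those of Ldha at -145 to 37. Of these genes Pfkp was called, and Pgk1 and Ldha were not.

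Below phosphofructokinase, Aldoc was the enzyme gene that was called by its brightest probe set. Aldoa, the widespread aldolase, read 13.42 and 13.26 in OP9M2 and 12.32 and 12.51 in BFC012 (0.92 ± 0.15, limma adjusted p = 0.0503). Its 5 probe sets agreed closely, between 0.88 and 1.08, and that at 1.08 (12.83 and 12.77 in OP9M2 against 11.60 and 11.84 in BFC012) was called higher. Without OP9M2 replicate 2 Aldoa was called higher by its brightest probe set too (1.00). Aldoc, the aldolase of brain, was below background in OP9M2 (5.48 and 5.67) and read 6.95 and 7.46 in BFC012. It was at least 2.16-fold lower in OP9M2 (measured difference -1.63 ± 0.22, adjusted p = 0.0320), and was not called with the mean of its probe sets.

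The genes of lactate dehydrogenase had differences of opposite sign, and neither was called with all arrays. Ldha, whose subunit favours making lactate, read 13.21 and 13.81 in OP9M2 and 12.84 and 12.76 in BFC012 (0.71 ± 0.24, limma adjusted p = 0.218). Ldhb, whose subunit favours using lactate, read 9.88 and 9.18 in OP9M2 and 10.32 and 10.77 in BFC012 (-1.02 ± 0.31, adjusted p = 0.179), and its 4 probe sets lay between -1.42 and -1.02. Without OP9M2 replicate 1 Ldha was called higher (1.01) and Ldhb lower (-1.37). Eno2, the enolase of neurons, read 7.53 and 6.04 in OP9M2 and 8.31 and 9.28 in BFC012 (-2.01 ± 0.61, adjusted p = 0.179). It was called lower without OP9M2 replicate 1 (-2.75), and the arrays of each line were 1.49 and 0.97 log2 units apart.

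None of the other enzymes of the pathway was called with all arrays. Pgk1, which makes ATP in the lower pathway, read 12.96 and 13.72 in OP9M2 and 12.62 and 12.55 in BFC012 (0.76 ± 0.28, limma adjusted p = 0.255), and its 3 probe sets lay between 0.63 and 0.76. Without OP9M2 replicate 1 it was called higher (1.13). Pkm, pyruvate kinase, read 12.90 and 13.09 in OP9M2 and 13.07 and 12.88 in BFC012, with overlapping lines and a narrow interval around 0.02 (-0.40 to 0.44). The hexokinase Hk2 read 9.76 and 9.05 in OP9M2 and 9.97 and 9.38 in BFC012, also overlapping (-0.27 ± 0.33, interval -1.16 to 0.62). Hk1 (0.39 ± 0.14), Tpi1 (0.37 ± 0.18) and Pgam1 (0.23 ± 0.28) differed by less than 0.4 log2 units and did not pass.

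**Figure D3:**
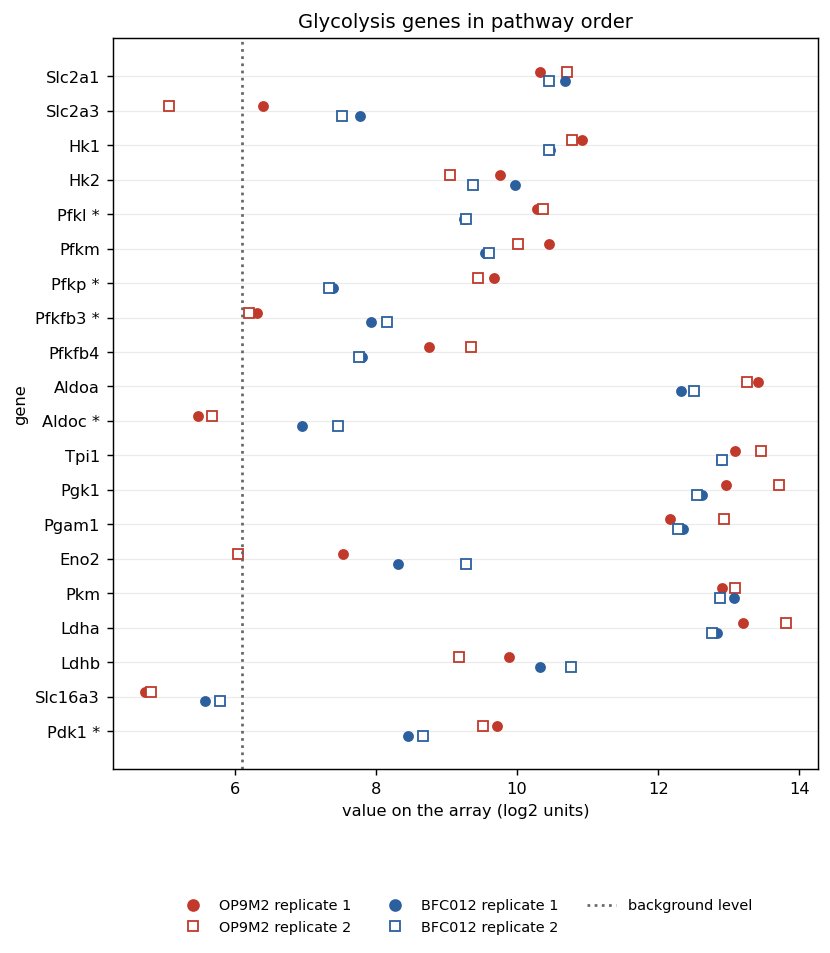
Array values (horizontal axis, log2 units) for the 20 measured glycolysis genes (vertical axis). They stand in pathway order from glucose uptake to lactate export, with Pdk1 last. OP9M2 is drawn in red and BFC012 in blue, with circles for replicate 1 and squares for replicate 2. A dotted line marks background and asterisks the 5 called genes. Pfkl, Pfkp and Pdk1 lie to the right in OP9M2, Pfkfb3 and Aldoc to the right in BFC012, and Slc2a1, Hk2, Pgam1 and Pkm overlap.

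At the ends of the pathway, neither Slc2a1 nor Slc2a3 was called, and the kinase Pdk1 was. Slc2a1, the general glucose transporter, read 10.32 and 10.71 in OP9M2 and 10.68 and 10.46 in BFC012, with overlapping lines (-0.06 ± 0.20, interval -0.58 to 0.46). Slc2a3, a transporter of high affinity, read 6.39 and 5.07 in OP9M2 and 7.77 and 7.51 in BFC012 (-1.91 ± 0.47, limma adjusted p = 0.119). With the BFC012 pair, 0.26 apart, as the only measure of spread it was called lower without OP9M2 replicate 1 (-2.58, adjusted p = 0.00605) and without OP9M2 replicate 2 (-1.25, adjusted p = 0.0262), while without either BFC012 array its adjusted p was 0.573 and 0.527. The lactate exporter Slc16a3 was below background on all 4 arrays, at 4.72 and 4.81 in OP9M2 and 5.57 and 5.79 in BFC012. Pdk1, a kinase that inhibits pyruvate dehydrogenase, read 9.72 and 9.51 in OP9M2 and 8.46 and 8.66 in BFC012. The difference was 1.06 ± 0.16 or 2.08-fold (adjusted p = 0.0431), and at 0.95 it was not called without OP9M2 replicate 1. The call was also lost with arrays centred on the median (adjusted p = 0.05005) and with an intensity trend in eBayes (0.0747). Of the other Pdk1 probe sets above background, that at 1.44 was called higher and that at 1.65 was not (adjusted p = 0.0938).

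Hif1a, Vhl, Hk2 and Pgam1 were among the genes that differed more between the OP9M2 arrays than between the lines. The gap between the arrays of a line was at least 0.5 log2 units in 15 of 39 genes in OP9M2 and in 6 of 39 in BFC012, with median gaps of 0.39 and 0.20. Over all genes the median gaps were 0.24 in OP9M2 and 0.15 in BFC012. OP9M2 replicate 2 was above replicate 1 in Pgk1, Pgam1, Ldha and Ndrg1, and below it in Epas1, Slc2a3, Eno2, Hk2 and Ldhb. The mean of 9 measured proliferation markers also differed, at 10.70 and 11.69 on the OP9M2 arrays and 11.77 and 11.46 on the BFC012 arrays, with none of the 9 called. The adipocyte list went the other way between the OP9M2 arrays, as given above. The part of either in the values of these genes was not tested.

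**Figure D4:**
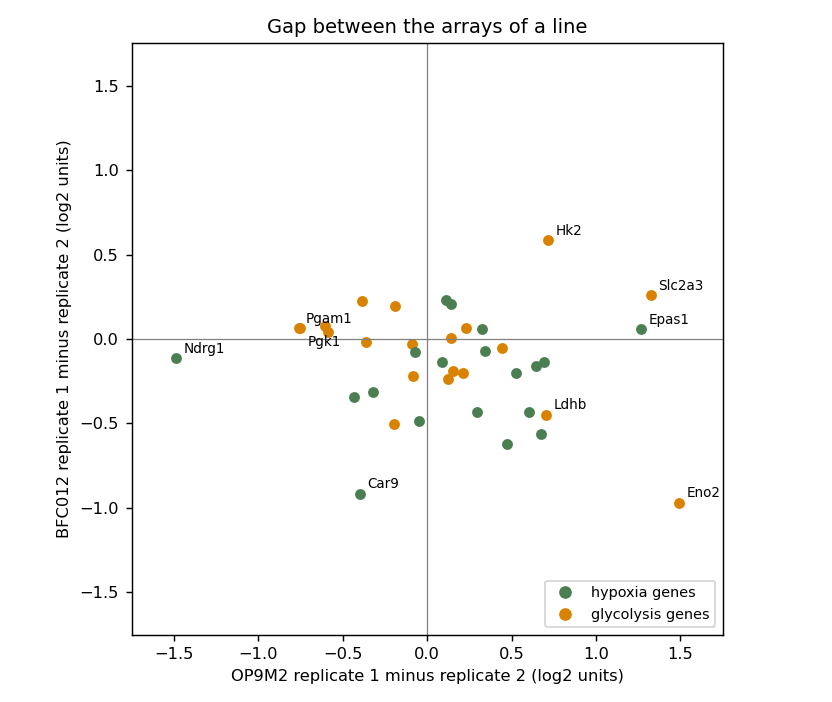
Value on replicate 1 minus value on replicate 2 within OP9M2 (horizontal axis, log2 units) and within BFC012 (vertical axis, log2 units) for the 39 measured genes, green for hypoxia genes and orange for glycolysis genes. Points spread further along the OP9M2 axis, from Ndrg1 at -1.49 to Eno2 at 1.49, than along the BFC012 axis.

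In 3 further lists of the same pathways the share of genes called was 7.14%, 6.67% and 7.14%, near the 5.91% of all genes and the 8.67% of those above background. Among 14 further oxygen sensing genes Arnt2 was called. Arnt2, a partner of HIF alpha subunits best known from neurons, was below background in OP9M2 (3.95 and 4.65) and read 9.17 and 9.22 in BFC012, at least 8.56-fold lower in OP9M2 (-4.89 ± 0.27, limma adjusted p = 0.00353). Its other 2 probe sets were below background and differed by -0.52 and 0.03. Arnt, the general partner, read 10.19 and 9.96 in OP9M2 and 9.48 and 9.79 in BFC012 (0.44 ± 0.18, adjusted p = 0.299). The asparagine hydroxylase Hif1an (-0.05), the prolyl hydroxylase Egln2 (-0.11) and Hif3a (0.02) differed by little.

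Of 30 further HIF targets, Angptl4 and Insig2 were called higher in OP9M2, and the median difference was 0.19. Angptl4, a secreted inhibitor of lipoprotein lipase that PPAR receptors also induce, read 11.80 and 11.50 in OP9M2 and 8.51 and 8.37 in BFC012 (9.22-fold, limma adjusted p = 0.00331). A second, dimmer Angptl4 probe set differed by 1.66 and did not pass (adjusted p = 0.0557), so the call rests on the brighter, an _s_at probe set. Insig2, which holds the sterol regulators of lipid synthesis in the endoplasmic reticulum, read 11.33 and 11.30 in OP9M2 and 9.32 and 9.56 in BFC012 (1.88 ± 0.15, 3.67-fold, adjusted p = 0.00887), and all 3 of its probe sets were called higher. Both genes have roles in lipid handling, and the adipocyte markers given above differed in the same direction. Their part in these values was not tested. Vegfa, the vessel growth factor known widely as a HIF target, read 8.59 and 8.50 in OP9M2 and 8.12 and 8.74 in BFC012, with overlapping lines (0.12 ± 0.25, adjusted p = 0.863).

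Of 14 further glycolysis genes, Tigar, a phosphatase that holds glycolysis back, was called lower at 7.57 and 7.47 in OP9M2 against 8.90 and 8.76 in BFC012 (-1.31 ± 0.14, limma adjusted p = 0.0185). Its other 2 probe sets were not called and pointed both ways (-0.35 and 0.36), and Tigar was not called with the mean of all 3. The 3 probe sets of Gapdh also name other genes, so it was not measured as a gene. The control probe set at the 3′ end of its transcript read 14.04 and 14.17 in OP9M2 and 14.21 and 14.19 in BFC012.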

How the data were processed

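RNA of the 4 samples, amplified by means of a kit from Ambion, was measured on Affymetrix mouse expression arrays. Each deposited value was the intensity of a probe set on an array, for which the authors used RMA and the affy package, in versions not given in the sources used here. Between 6.31% and 6.57% of them exceeded 65535, the scanner's largest value, and their natural logs lay between 2.06 and 14.9, the range of RMA log2 values. The natural log was therefore read as the log2 value. The base was not stated, and with log2 of the deposited values each difference would be larger at the same adjusted p.

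Of 45101 probe sets, 64 controls were left out. For the other 45037, lmFit and eBayes of limma 3.58.1 were run in R 4.3.3 (no covariate, 2 residual and 2.50 prior degrees of freedom) with Benjamini-Hochberg adjustment, both directions, and the number of arrays limits the precision. The array annotation named 1 gene for 34945 probe sets, several for 932 and none for 9160. The script was tested on simulated data with known changes and an equal spread in both lines. That test therefore cannot show how the unequal spread of the real lines affects the calls. Promoter windows came from RefSeq and were matched by gene identifier, with windows for 37 of the 42 genes.

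Values on each array were given for genes with a called probe set, for oxygen sensing genes and for Slc2a1, Hk2, Pgk1, Ldha, Pkm and Pdk1, and each called gene of the related lists, Arnt, Vegfa and Gapdh were named. Other members given by array were chosen after their values were seen. Members and lists were chosen with earlier results of these data known. Further marker lists gave Cd14 lower of 8 macrophage genes, Cdh1 lower of 7 epithelial genes, and 0 called of 7 endothelial, 5 hepatocyte and 4 erythroid genes (0 also at an unadjusted p under 0.05). Alternatives covered the scale, normalization, filter, variance model, replicate block, omitted arrays, probe set per gene and minimum difference.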

Additional observations from a re-analysis of the deposited data

How the results depend on the processing

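With all arrays 2008 probe sets, 1076 genes, 14 member probe sets, 5 glycolysis genes, 5 other hypoxia genes and 4 genes of the related lists were called. Log2 of the deposited values, quantile normalization, median centring, a filter on dim probe sets, no minimum difference and the omission of probe sets ending in _s_at or _x_at kept each count within 1.5 times, although median centring lost Pdk1, the filter gained Ddit4 and Edn1, and without _s_at and _x_at probe sets Angptl4 was lost (1.66, adjusted p = 0.0557). With an intensity trend in eBayes 3 glycolysis genes were called (Pdk1 and Pfkl lost, and Ddit4 gained among the hypoxia genes). With the mean of the probe sets of a gene 3 were called as well (Aldoc, Pfkfb3 and Pfkl lost, Pfkfb4 gained). That mean also gained Ddit4 among the hypoxia genes. Among the related genes it lost Tigar and gained Edn1 and Ppp1r3c. Leaving out 1 array gave 0 to 4437 probe sets, 0 to 2316 genes, 0 to 29 member probe sets, 0 to 10 glycolysis genes, 0 to 8 other hypoxia genes and 0 to 17 related genes. The counts of 0 came without BFC012 replicate 1 and without BFC012 replicate 2, where the lone array of a line is assumed to vary like the other line. Leaving out 1 array turned the sign of some differences. The ranges were -0.35 to 0.26 for Hif1a, -0.63 to 0.089 for Hk2, -0.075 to 0.12 for Pkm and -0.25 to 0.14 for Slc2a1. They were -0.19 to 0.43 for Vegfa, -0.31 to 0.38 for Vhl, -0.15 to 0.61 for Pgam1 and -0.30 to 0.022 for P4ha1. With the mean of the probe sets Hif1a was at 0.27 and Vhl at -0.038.

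Samples of equal replicate number did not deviate together (correlation of deviations -0.10, 2 pairs), so the numbers were not treated as pairs. With 2 arrays per line, this correlation cannot show whether the samples were paired. With the replicate number as a block 707 probe sets, 420 genes, 5 member probe sets, 1 glycolysis gene, 3 other hypoxia genes and 2 related genes were called, and Pfkp, Epas1, Adm, Car12, Angptl4 and Arnt2 were those that passed. With the numbers crossed, a pairing chosen after seeing the data, 8 member probe sets, 3 glycolysis genes and 4 other hypoxia genes were called. In both fits the differences were the same as in the main fit. The added term used up a residual degree of freedom, so only the measure of spread changed.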

Other observations

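Routes that lead glucose carbon away from lactate were measured by lists of their own, and none of their genes was called with limma. In the pentose phosphate pathway, which makes ribose and NADPH, 5 of 6 measured genes had differences above 0 (median 0.57) and 4 had an unadjusted p under 0.05, against 54.7% of all genes above 0 and 23.3% of all genes under that p. Pgd read 12.30 and 13.02 in OP9M2 and 11.37 and 11.40 in BFC012 (1.27 ± 0.27, adjusted p = 0.0922), and was called higher without OP9M2 replicate 1, where the BFC012 pair alone gives the spread. Tkt, which shuttles carbon back to glycolysis, read 13.53 and 13.62 in OP9M2 and 12.89 and 12.88 in BFC012 (0.69 ± 0.13, adjusted p = 0.0715). For comparison, the median difference over all genes was 0.03.

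Of 13 further genes of pyruvate metabolism, 3 had an unadjusted limma p under 0.05 (23.1%, close to the share of all genes). The median difference of the 13 genes was 0.25 and turned to -0.14 without OP9M2 replicate 1. Of 15 genes of the citric acid cycle 3 had an unadjusted p under 0.05 (20.0%, also near that share), all with higher values in OP9M2, and the differences lay between -0.70 (Idh3a) and 0.62 (Cs). Pcx, which turns pyruvate into oxaloacetate, read 11.39 and 9.06 in OP9M2 and 9.72 and 10.09 in BFC012, so the OP9M2 arrays lay on both sides of the BFC012 arrays. Ak4, a mitochondrial adenylate kinase and HIF target, read 7.62 and 8.83 in OP9M2 and 6.25 and 6.16 in BFC012 (2.02 ± 0.42, adjusted p = 0.0869). The vessel-constricting peptide gene Edn1 read 6.25 and 7.13 in OP9M2 and 8.90 and 8.43 in BFC012 (-1.98 ± 0.35, adjusted p = 0.0609). Both were called, Ak4 higher and Edn1 lower, without either OP9M2 array, where the BFC012 pair alone gives the spread, and neither was called without either BFC012 array. Pgd, Tkt, Pcx, Ak4 and Edn1 were chosen after their values were seen.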
